A study of Homo sapiens with 4 samples.

Results

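The HLA class I antigen presentation genes described here were HLA-B, HLA-C, HLA-E, HLA-F, B2M, TAP1, TAP2, PSMB8 and PSMB9, 9 of the 22980 gene names measured. They were listed by name as parts of 1 pathway, not by a threshold on their values. Each level was the sum of the deposited FPKM (sequenced fragments relative to transcript length and to library depth) over the transcripts of a gene on the primary chromosomes. The members do not cover every class I heavy chain.

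RNA came from BEAS-2B, an immortalized line of human lung epithelium, and total RNA was extracted with Trizol for Illumina libraries. The cells were left untreated in 2 libraries and exposed to formaldehyde, a small reactive aldehyde, at 100 µM for 48 h in the other 2. The comparison asks which of these genes respond to formaldehyde. The labels do not say whether replicates were separate cultures. Each p-value thus sets the difference between the groups only against the spread of these libraries, and that spread may be technical.

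Class I molecules display peptides from inside the cell to cytotoxic T cells and natural killer cells. The proteasome cuts proteins into peptides, the TAP transporter carries them into the endoplasmic reticulum, and there they are loaded onto a heavy chain paired with beta-2-microglobulin. Interferons are known to induce many genes of this route, through promoter elements bound by interferon regulatory factors, NF-kappa B and the NLRC5 enhanceosome.

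Promoter sequences are shown first for the 6 genes with a match to the interferon regulatory factor core, since they show what the heavy chain genes, B2M and the transporter genes share upstream. They cover 180 to 31 bases before the start, 5′ to 3′ on the strand of the gene, from RefSeq on GRCh38.p14, which held 10 entries for 8 of the 9 members and none for HLA-E. Capitals mark matches on either strand to AANNGAAA (interferon regulatory factor core), TGACG (cyclic AMP response element core), CCAAT (the box bound by NF-Y) or the NF-kappa B consensus.
HLA-B, chr6:31357210-31357359, minus strand: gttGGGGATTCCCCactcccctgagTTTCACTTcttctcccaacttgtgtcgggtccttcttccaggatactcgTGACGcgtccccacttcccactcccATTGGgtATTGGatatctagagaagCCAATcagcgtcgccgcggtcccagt
HLA-C, chr6:31272123-31272272, minus strand: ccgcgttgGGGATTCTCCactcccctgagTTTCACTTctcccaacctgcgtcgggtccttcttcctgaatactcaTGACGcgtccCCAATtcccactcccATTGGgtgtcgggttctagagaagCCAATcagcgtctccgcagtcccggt
HLA-F, chr6:29723254-29723403, plus strand: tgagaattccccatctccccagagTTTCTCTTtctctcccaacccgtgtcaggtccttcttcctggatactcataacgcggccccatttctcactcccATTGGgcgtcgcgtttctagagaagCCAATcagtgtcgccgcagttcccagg
B2M, chr15:44711337-44711486, plus strand: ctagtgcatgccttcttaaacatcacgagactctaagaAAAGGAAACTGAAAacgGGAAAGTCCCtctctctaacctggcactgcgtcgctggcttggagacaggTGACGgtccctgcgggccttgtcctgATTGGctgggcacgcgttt
TAP1, first RefSeq entry, chr6:32853735-32853884, minus strand: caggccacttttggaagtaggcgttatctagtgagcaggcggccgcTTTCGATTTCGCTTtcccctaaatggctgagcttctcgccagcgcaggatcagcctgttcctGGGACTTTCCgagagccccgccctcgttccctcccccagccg
TAP2, chr6:32838770-32838919, minus strand: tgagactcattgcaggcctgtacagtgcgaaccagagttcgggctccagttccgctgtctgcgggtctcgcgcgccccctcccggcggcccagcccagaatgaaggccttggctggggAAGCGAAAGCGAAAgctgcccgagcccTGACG

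The interferon regulatory factor core lay in 6 of the 10 member windows, against 12.1% of 35092 RefSeq promoter windows of the same length. In B2M, TAP1 and TAP2 there were 2 such matches that overlapped each other, and the NF-kappa B matches of HLA-B also overlapped. The cyclic AMP response element core was present in 6 of the 10 windows, against 14.3% of all. A CCAAT box was present in 4 (HLA-B, HLA-C, HLA-F and B2M), against 23.8%, and an NF-kappa B match in 4 (HLA-B, HLA-C, B2M and TAP1), against 6.24%. HLA-B, HLA-C and B2M held the first 3 of these motifs together, as did 0.316% of all windows. In these 150 bases the windows of PSMB8 and PSMB9 held no match to the interferon regulatory factor core, although the full 300 bases of the second PSMB8 entry held 2. For each of these genes 1 window held the cyclic AMP response element core. The window shown for TAP1 ends at 32853884, before that of PSMB9 begins at 32854012, and the 2 genes run in opposite directions. The matches in the TAP1 window thus also lie upstream of PSMB9, outside the PSMB9 window. HLA-B, HLA-C and HLA-F are related genes, so their windows are not independent, and a match describes letters only.

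In the files (hg19) 8 members lay on chromosome 6, within 3.14 Mb from the start of HLA-F (29691117 to 29695073) to the end of PSMB9 (32821938 to 32827628), and B2M lay on chromosome 15 (45003685 to 45010357). Next to HLA-F came HLA-E (30457183 to 30461982), then HLA-C (31236526 to 31239913) and HLA-B (31321649 to 31324989). TAP2 (32789610 to 32806547), PSMB8 (32808494 to 32812712), TAP1 (32812986 to 32821748) and PSMB9 filled 38.0 kb. TAP1 and PSMB9 ran in opposite directions from starts 190 nt apart. The files also listed copies of the 8 genes on up to 7 alternative haplotypes of chromosome 6. All 2106 transcript lines per library on such names were listed at 0 FPKM, so adding the copies changed no member value.

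The libraries held 14.2 to 26.5 M mapped fragments (M, mega), a depth recovered from the deposited values, and replicate 2 was the deeper library in both groups. The number of genes at 1 FPKM or more per library was 12049 to 12379. The epithelial keratins KRT8 (291 and 290.4 FPKM untreated, 447 and 416 FPKM with formaldehyde) and KRT18 (226 and 206, then 358 and 418 FPKM) did not overlap between the groups. KRT17 (26.4 and 178, then 61.2 and 48.0 FPKM) and EPCAM (0.983 and 2.77, then 2.69 and 3.18 FPKM) overlapped. KRT19 did not exceed 0.378 FPKM. Of 7 fibroblast genes, 4 stayed under 1 FPKM in each library. COL1A1 gave 279 and 568 FPKM without formaldehyde, then 137 and 254 FPKM with it, without overlap. PDGFRB gave 21.8 and 29.97, then 7.40 and 22.2 FPKM, with overlap. KRT8, KRT18, KRT17, EPCAM, COL1A1 and PDGFRB did not pass the test, and their part in the members' values was not tested. The basal cell genes KRT5 and TP63 were listed at 0, and CDH1, the epithelial cadherin, did not exceed 0.631 FPKM. Of 20 leukocyte markers, 6 were listed at 0 in all libraries and 15 stayed under 1 FPKM in each. Among the latter was PTPRC, the pan-leukocyte gene, at 0.0232 FPKM or less. CORO1A gave 1.53 and 2.69 FPKM without formaldehyde, then 4.75 and 4.02 FPKM with it, without overlap. Its unadjusted p was 0.0329 (limma adjusted p = 0.9999). CD14 (3.75 and 11.98, then 1.77 and 6.23 FPKM) and CD74 (highest at 10.7 FPKM, in untreated replicate 2) overlapped. LAPTM5 (2.35 FPKM) and FCER1G (1.09 FPKM) exceeded 1 FPKM only in formaldehyde replicate 1. The part of these genes in the members' values was not tested. The summed level of the 20 leukocyte markers was 9.04 and 27.3 FPKM in untreated and 15.9 and 18.9 FPKM in formaldehyde libraries.

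None of the 9 members passed the test between formaldehyde and untreated cells (limma on log2(FPKM + 1), adjusted p of 0.9999 for each, threshold 0.05), and none had an unadjusted p under 0.05. Over all 12407 genes tested, 0.153% passed (0.0806% rose and 0.0725% fell), and 2.76% had an unadjusted p under 0.05. TAP1, TAP2 and PSMB8 were the 3 members whose formaldehyde libraries both lay above the untreated ones, which held for 16.2% of all genes. No member had both formaldehyde libraries below, which held for 10.7% of all genes. The median log2 fold change was 0.12 over the members and 0.03 over all genes. In bulk RNA, fewer cells of a type and less RNA per cell cannot be told apart.

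B2M, the invariant light chain of every class I molecule, was the most abundant member. Its level was 949 and 969 FPKM in untreated replicates 1 and 2 and 958 and 1134 FPKM in formaldehyde replicates 1 and 2. The groups overlapped, with formaldehyde replicate 2 above the other 3 libraries. The means were 959 ± 13.7 and 1046 ± 125 FPKM (SD, n = 2 each), and the log2 fold change was 0.12 ± 0.27 (SE), with a 95% interval of -0.57 to 0.82.

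HLA-B, a classical heavy chain that presents peptides to T cells, stood at 576 and 1068 FPKM in untreated cells and 617 and 942 FPKM with formaldehyde. HLA-C, the other classical heavy chain here and also a ligand of killer cell receptors, stood at 581 and 1111 FPKM without formaldehyde and at 656 and 1028 FPKM with it. In both genes the formaldehyde values lay between the untreated ones, so the groups overlapped fully. The log2 fold change was -0.04 ± 0.42 for HLA-B (95% interval -1.13 to 1.05) and 0.03 ± 0.44 for HLA-C (-1.10 to 1.17). The sign for HLA-C was negative under each of the 3 other scalings.

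HLA-E, a nonclassical heavy chain that presents leader peptides to natural killer cell receptors, stood at 93.9 and 170.5 FPKM in untreated cells and 78.0 and 147 FPKM with formaldehyde. HLA-F, another nonclassical heavy chain, stood at 26.6 and 76.5 FPKM without formaldehyde and at 28.6 and 70.4 FPKM with it. The groups overlapped in both genes, and replicate 2 was the higher library each time. The log2 fold change was -0.24 ± 0.44 for HLA-E (95% interval -1.38 to 0.90) and -0.01 ± 0.65 for HLA-F (-1.69 to 1.67), the widest interval of the members. Of 3 HLA-F transcripts, NM_018950 carried 94.7% and 97.5% of the level in untreated and 98.1% and 98.8% in formaldehyde libraries, and with this transcript alone the log2 fold change was 0.03.

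TAP1 and TAP2 encode the 2 chains of the peptide transporter. TAP1 stood at 23.1 and 29.99 FPKM in untreated cells and 32.2 and 31.4 FPKM with formaldehyde. TAP2 stood at 39.3 and 43.8 FPKM without formaldehyde and at 62.0 and 47.5 FPKM with it. Neither gene's groups overlapped, although the nearest TAP1 values lay close together. The log2 fold change was 0.26 ± 0.22 for TAP1 (95% interval -0.30 to 0.82) and 0.38 ± 0.23 for TAP2 (-0.21 to 0.97). The 2 TAP2 transcripts kept similar proportions, the shorter one, NM_018833, giving 65.2% and 64.7% of the level in untreated and 69.0% and 67.1% in formaldehyde libraries. The deposited interval of TAP1 in formaldehyde replicate 2 ran from 0 to 42.6 FPKM, and TAP1's groups overlapped after scaling by median ratios or by the FPKM sum.

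PSMB8 and PSMB9 encode catalytic subunits of the immunoproteasome, the form of the proteasome that favours peptides fit for class I. PSMB8 stood at 65.4 and 46.0 FPKM in untreated cells and 87.5 and 75.0 FPKM with formaldehyde, and its groups did not overlap. The means were 55.7 ± 13.7 and 81.3 ± 8.84 FPKM (SD, n = 2 each), a ratio of 1.46. Its log2 fold change of 0.55 ± 0.26 (95% interval -0.11 to 1.22, unadjusted p = 0.0847, limma) was the largest of the members. PSMB9 stood at 66.2 and 73.2 FPKM without formaldehyde and at 66.7 and 109 FPKM with it, where replicate 1 lay between the untreated values and replicate 2 above them. The log2 fold change of PSMB9 was 0.29 ± 0.30 (95% interval -0.48 to 1.06). The main PSMB8 transcript, NM_148919, gave 89.7% to 93.5% of the gene, with a deposited interval of 26.4 to 133 FPKM in formaldehyde replicate 1 and of 0 to 96.6 FPKM in replicate 2. LOC100507463 was listed on the opposite strand across the end of TAP1 and the start of the other PSMB8 transcript, NM_004159 (6.52% to 10.3% of the gene). It cannot be told apart from them where they overlap, since no strand setting is given. The main PSMB8 transcript ended at 32811816, before LOC100507463 began at 32811863. The same limit holds for HLA-F-AS1 and the HLA-F transcript NM_001098479 (1.19% to 5.28% of the gene). NM_018950 ended at 29694303, before HLA-F-AS1 began at 29694378.

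**Figure D1:**
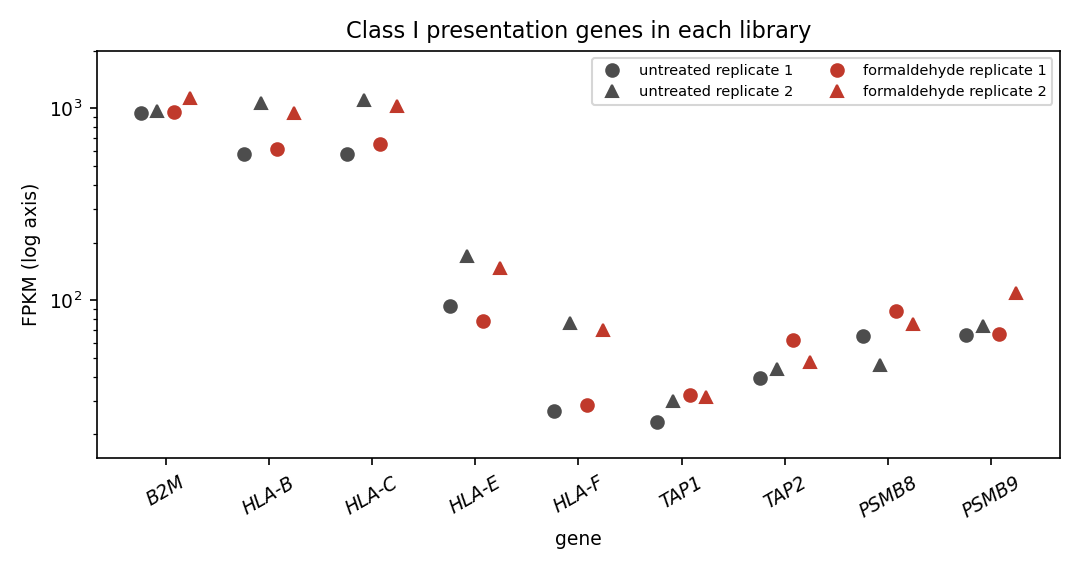
Level of each class I presentation gene (FPKM, log axis) in the 4 libraries, circles for replicate 1 and triangles for replicate 2, grey for untreated and red for formaldehyde. B2M, HLA-B and HLA-C lie highest, and in the 4 heavy chain genes the triangles of both groups lie above the circles.

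**Figure D2:**
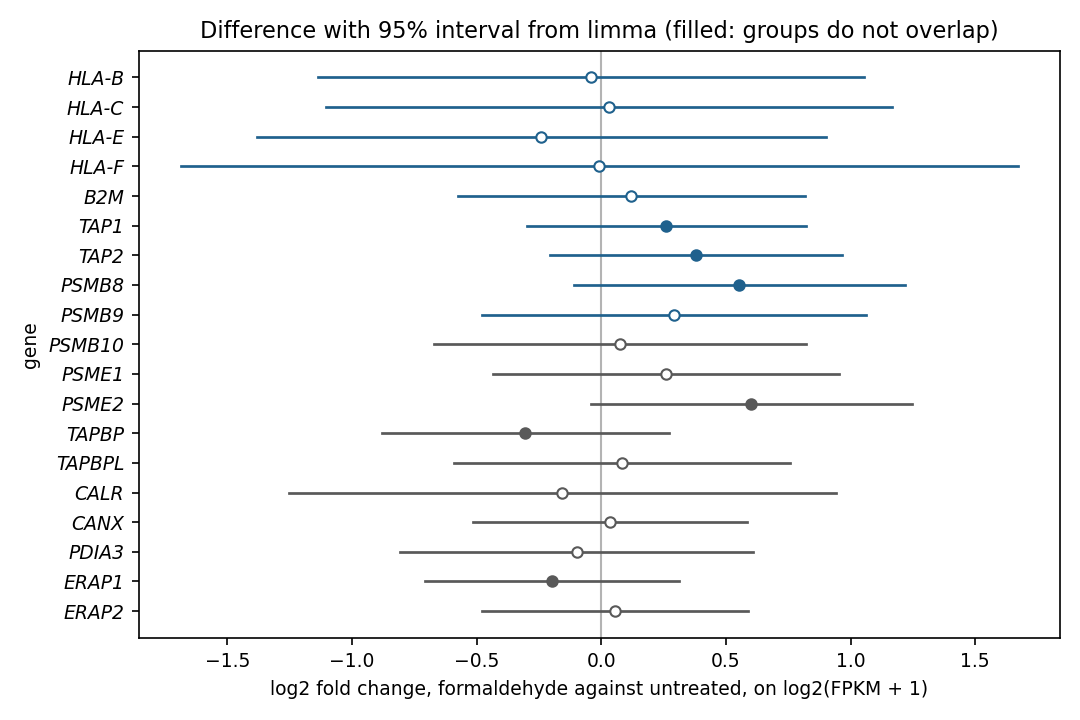
Log2 fold change of formaldehyde against untreated on log2(FPKM + 1) with its 95% interval from limma, for the members (blue) and related pathway genes (grey), filled where the groups did not overlap. Every interval shown includes 0.

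By mean level over the 4 libraries the order was B2M (1003 FPKM), HLA-C (844), HLA-B (801), HLA-E (122), PSMB9 (78.8), PSMB8 (68.5), HLA-F (50.6), TAP2 (48.1) and TAP1 (29.2). Only between HLA-B and HLA-E, and between TAP2 and TAP1, did neighbours in this order not overlap in their ranges over the libraries. B2M ranked 62nd, HLA-C 77th and HLA-B 87th of the 12407 genes tested. The light chain and the classical heavy chains were thus measured at similar levels per length. HLA-B over B2M was 0.607 and 1.10 in untreated and 0.644 and 0.831 in formaldehyde libraries. HLA-B over HLA-C moved less, at 0.992 and 0.961 untreated and 0.941 and 0.917 with formaldehyde. Reads shared by near-identical heavy chain genes were assigned by the authors' software. The fragment numbers recovered for HLA-B and HLA-C were not whole in any library, nor were those for TAP1, while those for B2M and PSMB9 were whole (within 0.05) in all. Each number was recovered from the deposited interval. For TAP1 in formaldehyde replicate 2 that interval was wide and uneven (0 to 42.6 FPKM around a level of 31.4 FPKM). The number recovered there, 31.4 against 2156 in untreated replicate 2, follows the width of the interval and is not a count of fragments.

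The heavy chain genes differed more between the libraries of a group than between the groups. Replicate 2 over replicate 1 was 1.85 in untreated and 1.53 in formaldehyde cells for HLA-B, and 1.91 and 1.57 for HLA-C. It was 1.81 and 1.88 for HLA-E, and 2.88 and 2.46 for HLA-F. All 4 heavy chain genes, and no other member, were at least 1.5-fold higher in replicate 2 in both groups, which held for 5.99% of all genes, with 5.03% the other way. Counting any excess of replicate 2 in both groups, 6 of the 9 members qualified, against 29.3% of all genes. The remaining 5 members did not reach 1.5-fold in both groups. Their ratios, untreated then formaldehyde, were 1.02 and 1.18 for B2M, 1.296 and 0.976 for TAP1, 1.11 and 0.766 for TAP2, 0.703 and 0.857 for PSMB8, and 1.11 and 1.64 for PSMB9.

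Of the 16 tested class I-like molecules and NKG2D ligands, 3 were at least 1.5-fold higher in replicate 2 in both groups, HLA-G, HLA-L and ULBP1 (named after their values were seen, as is HLA-H). HLA-G, a nonclassical heavy chain, stood at 16.2 and 37.5 FPKM without formaldehyde and at 17.6 and 34.0 FPKM with it. HLA-H, a class I pseudogene, stood at 107 and 193 FPKM without formaldehyde and at 117 and 169 FPKM with it, ratios of 1.80 and 1.45. Among the others of this list were ratios of 1.19 and 1.07 for MICA, a ligand of the NKG2D receptor, and of 2.05 and 0.453 for FCGRT, the heavy chain of the neonatal Fc receptor. Of 94 tested neighbours in the class I and class II region, 22 were at least 1.5-fold higher in replicate 2 in both groups and 1 was so in replicate 1. Over all genes these shares were 5.99% and 5.03%.

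**Figure D3:**
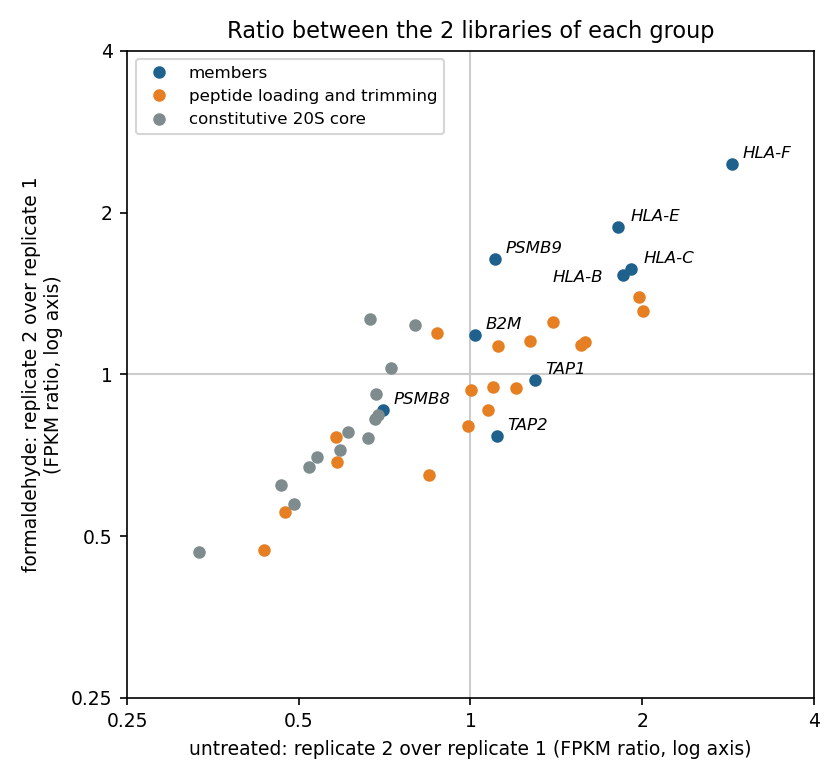
Replicate 2 over replicate 1 (FPKM ratio, log axes) in untreated (x axis) and formaldehyde libraries (y axis) for the members, the peptide loading and trimming genes and the constitutive proteasome core. The 4 heavy chain genes lie at the upper right, from 1.81 to 2.88 on the x axis, and the proteasome core genes lie below 1 on it.

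Depth and GC content of transcripts moved with these differences. GC content could be had for 11984 of the 12407 genes (96.6%) and for 8 of the members, all but HLA-C. In the fifth of genes with the lowest GC content (30.95% to 41.6%) the median log2 difference, replicate 2 minus replicate 1, was -0.43 in untreated and -0.13 in formaldehyde cells, and 1.46% of genes were at least 1.5-fold higher in replicate 2 in both groups. In the fifth with the highest (59.2% to 87.9%), which held HLA-F, the medians were 0.28 and 0.13, and the share was 13.5%. The fifth just below it (52.8% to 59.2%) held HLA-B and HLA-E, and also TAP1, TAP2, PSMB8 and PSMB9. Its medians were 0.08 and 0.09, and its share was 8.01%. HLA-B had a GC content of 59.0%, HLA-F 59.7% and HLA-E 54.8%, against 57.5% for TAP1, 54.9% for PSMB8 and 39.1% for B2M. The part of GC content and depth in the heavy chain differences was not tested. The median log2 fold change between formaldehyde and untreated cells lay between 0.00 and 0.05 in all 5 GC groups.

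**Figure D4:**
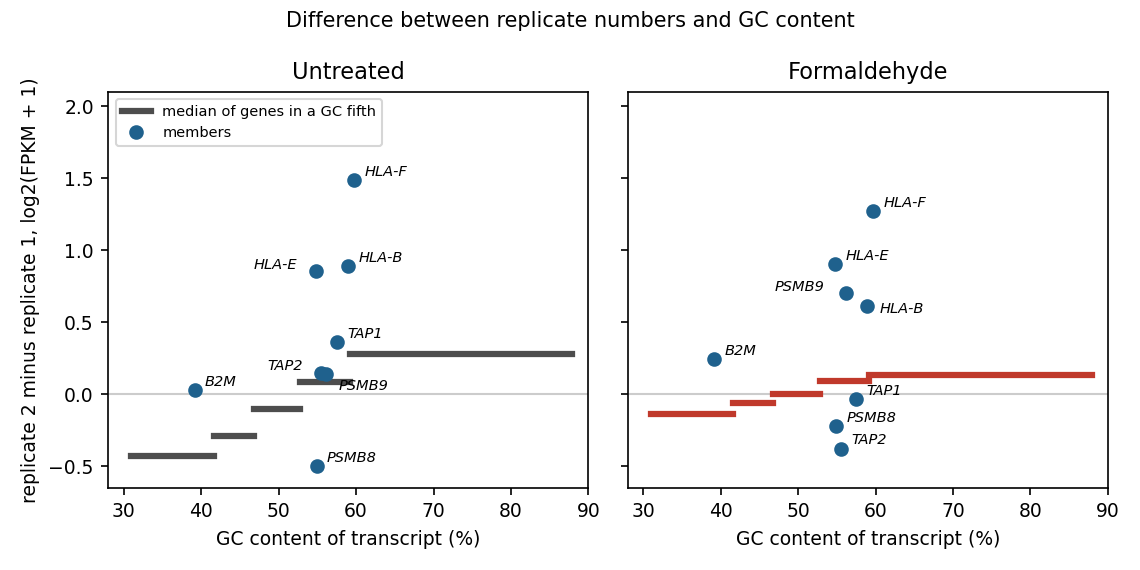
Difference between replicates 2 and 1 on log2(FPKM + 1) against GC content of the transcript (%), in untreated (left) and formaldehyde libraries (right), with the members as points and the medians of 5 GC groups of all tested genes as bars. The bars climb from -0.43 to 0.28 on the left and from -0.13 to 0.13 on the right, and HLA-F, HLA-E and HLA-B lie above them in both panels.

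Immunoproteasome subunits take the place of constitutive ones, so each was set against its counterpart. PSMB8 over PSMB5 was 0.569 and 0.744 in untreated and 0.679 and 0.831 in formaldehyde libraries. PSMB9 over PSMB6 was 0.197 and 0.273 untreated and 0.210 and 0.279 with formaldehyde. These ratios overlapped between the groups (log2 differences 0.21 and 0.06, p = 0.667 for each, exact permutation test, two-sided). PSMB10, the remaining immunoproteasome subunit, over PSMB7 was 0.132 and 0.112 untreated and 0.107 and 0.0883 with formaldehyde, without overlap (log2 difference -0.33, p = 0.333, same exact test). With 2 libraries a group the smallest p is 0.333, and adjustment over these 3 ratios gives 0.667 for each.

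Of the proteasome, loading and trimming genes outside the members, 0 passed the adjusted threshold and 0 had an unadjusted p under 0.05 (limma). All 6 genes of the list of PSMB10 and proteasome activators had positive log2 fold changes, as did 55.1% of all genes, with a median of 0.32. In 1 of the 6 the groups did not overlap, against 16.2% of all genes with both formaldehyde libraries above. It was PSME2, a subunit of the PA28 activator, at 94.1 and 68.3 FPKM without formaldehyde and at 115 and 129 FPKM with it (log2 fold change 0.60 ± 0.25). The 14 constitutive core genes were likewise all positive, with a median of 0.20, and 2 of them, PSMB7 and PSMB2, had formaldehyde libraries both above, a share near that of all genes. Without untreated replicate 2 the medians were 0.0030 for the activator list and -0.17 for the core, and without formaldehyde replicate 1 the core median was -0.0093. In addition, 3 of the 14 core genes were at least 1.5-fold lower in replicate 2 in both groups, against 5.03% of all genes.

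Of 18 peptide loading and trimming genes, 11 had positive and 7 negative log2 fold changes, with a median of 0.04. THOP1, a peptidase of the cytosol, was the 1 gene with both formaldehyde libraries above (16.2% of all genes), and TAPBP, ERAP1, UGGT1 and GANAB were the 4 with both below (10.7% of all genes). TAPBP, or tapasin, which bridges the heavy chain and the transporter, stood at 36.1 and 45.9 FPKM without formaldehyde and at 30.5 and 35.2 FPKM with it (log2 fold change -0.30 ± 0.22). ERAP1, which trims peptides in the endoplasmic reticulum, stood at 10.9 and 11.7 FPKM without formaldehyde and at 10.5 and 9.01 FPKM with it. CALR, the loading chaperone calreticulin, differed 2.01-fold between the untreated and 1.31-fold between the formaldehyde libraries, at 617 and 1238 FPKM without formaldehyde and at 685 and 898 FPKM with it.

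Among 16 transcription regulators, none passed the test after adjustment and 2 had an unadjusted p under 0.05 (limma), against 2.76% of all genes. Both formaldehyde libraries lay above in 2 of the 16 (16.2% of all genes) and below in 2 (10.7% of all genes). IRF9, the DNA-binding part of the complex that carries type I interferon signals, stood at 15.6 and 15.3 FPKM without formaldehyde and at 26.4 and 31.8 FPKM with it (log2 fold change 0.87 ± 0.20, unadjusted p = 0.0079, limma adjusted p = 0.9999). NLRC5, the activator of class I promoters, was low, at 2.88 and 3.46 FPKM without formaldehyde and at 2.75 and 2.83 FPKM with it. IRF1, which binds the interferon regulatory factor core and was named outside the rule, overlapped at 14.8 and 11.9 FPKM without formaldehyde and at 11.8 and 15.3 FPKM with it.

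Beside these, in all 26 tested type I interferon effectors the formaldehyde pair of libraries lay above the untreated pair, which held for 16.2% of all genes. Their median log2 fold change was 1.18, and 1 of them, IFI27, passed the test (log2 fold change 3.003 ± 0.20, limma adjusted p = 0.0212). That call did not hold when low genes were kept (limma adjusted p 0.0921) and with any 1 library left out (0.0610 to 0.0799), while the log2 fold change stayed between 2.87 and 3.13. The members' values spanned -0.24 to 0.55, and the lowest effector stood at 0.49. Of 13 tested genes known for interferon gamma, 8 were positive and 5 negative, with a median of 0.17, and 55.1% of all genes were positive. In 5 of the 13 both formaldehyde libraries lay above, against 16.2% of all genes. The 16 tested class I-like molecules and NKG2D ligands had a median of -0.04, and the 7 tested class II presentation genes one of 0.05. These lists share the 4 libraries with the members, and the difference between lists was not tested.

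**Figure D5:**
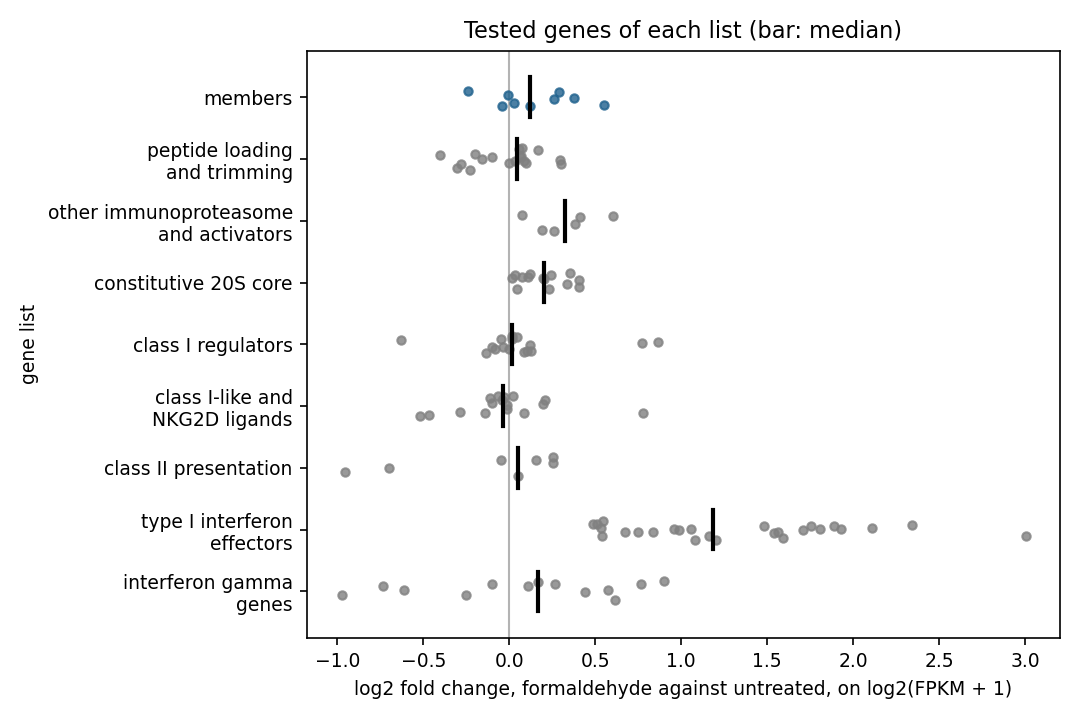
Log2 fold change (formaldehyde against untreated, on log2(FPKM + 1)) of each tested gene of the members and of 8 lists, with the median as a bar. The members lie between -0.24 and 0.55, and the type I interferon effectors lie from 0.49 upward.

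The 5 genes whose pattern over the 4 libraries lay nearest to the mean of the members (Euclidean distance of centred log2(FPKM + 1) values, 0.0298 to 0.0528) were EPB41L1, ZNF496, PPP1R35, TMEM120B and PELP1. Each was higher in replicate 2 of both groups, with ratios of 1.36 to 1.496. The mean of the members joins heavy chain genes and others whose patterns differed. Nearest to the heavy chain genes alone, a choice added after the values were seen, were LRRC45, ACBD4, NRGN, COL9A2 and B4GALNT4, at distances of 0.0774 to 0.103.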

How the data were processed

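The 4 libraries (2 untreated, 2 formaldehyde) were grouped by their labels. Per the submitters' processing notes, FastQC 0.10.0, STAR 2.5.2 and Cufflinks 2.0.2 were used with hg19/GRCh37. Read trimming, the handling of reads with several alignments and the strand option were not given in the sources used here. The deposited files list 40255 transcripts each, with FPKM that the authors estimated, per the file headers. FPKM were summed per gene over the primary chromosomes, without haplotype or unplaced names. Left out were 894 unnamed transcripts, which held 1.07% to 1.31% of FPKM.

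Genes with a mean of at least 1 FPKM (12407, all members included) entered limma 3.58.1 (R 4.3.3) as log2(FPKM + 1) (eBayes with a mean trend, no covariate, two-sided, Benjamini-Hochberg over all genes). This scale understates changes of low genes. On simulated libraries for this comparison (12283 genes, 200 of them changed 8-fold from at least 10 FPKM), the test recovered 66.0% of the changed genes and called 7 others. Noise was drawn independently per library, and smaller changes, such as the ratio of 1.46 for PSMB8, were not simulated. The recovery of changes of that size is thus not known. Overlap was judged on the FPKM of the libraries. Depth came from the deposited FPKM and upper interval bounds, by regression on transcript length. Intervals of limma describe the spread of these libraries, and deposited intervals are the authors' own. GC content is that of GENCODE transcripts matched by RefSeq name. Ratios of subunits were tested by exact permutation. Tables and figures used Python 3.11.15 and matplotlib 3.10.9.

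The text may name all members, the loading, trimming and activator genes, PSMB5, PSMB6 and PSMB7, and up to 4 genes of each other list by moderated t. It may also name the 5 genes of at least 300 nt and 5 FPKM most like the members. Exceptions are stated, and the result for 1 gene is not reported here. The members and lists were chosen with earlier results of these data known. Alternatives covered haplotype copies, the highest transcript, pseudocount, filters, length, scaling, the eBayes prior, a replicate block and each library left out.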

Additional observations from a re-analysis of the deposited data

How the results depend on the processing

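No member passed an adjusted p of 0.05 under any alternative run with limma, nor did any gene of the loading and trimming or the activator list. Of 322 alternative log2 values (members, list medians and subunit ratios), 42 had the opposite sign of the value reported, 26 of them list medians, and 27 of the 42 came with 1 library left out. HLA-C turned from 0.03 to -0.014 (median-ratio scaling), -0.035 (FPKM-sum scaling) and -0.034 (quantile normalization), and HLA-F from -0.01 to 0.026 with the highest transcript alone. Leaving out 1 library in turn gave log2 fold changes of -0.49 to 0.40 for HLA-B, -0.44 to 0.50 for HLA-C and -0.75 to 0.74 for HLA-F, lowest without untreated replicate 1 and highest without untreated replicate 2. Without formaldehyde replicate 1, HLA-B (0.26) and HLA-F (0.63) also turned, as did HLA-C without formaldehyde replicate 2 (-0.29). HLA-E ran from -0.69 without formaldehyde replicate 2 to 0.21 without replicate 1, and turned without untreated replicate 2 (0.19). B2M (-0.0011 to 0.24) and PSMB9 (-0.061 to 0.64) turned without formaldehyde replicate 2. For TAP1, TAP2 and PSMB8 these were 0.08 to 0.44, 0.19 to 0.57 and 0.30 to 0.80, positive throughout. The lone library of a group is then assumed to vary like the others. Of the members, 3 lay above and 4 below without overlap when untreated replicate 1 was left out (47.0% and 28.2% of all genes), so 7 in all. The number was 8, all above, without untreated replicate 2 (29.7% above, 35.0% below), and 5, all above, without formaldehyde replicate 1 (31.1% and 19.3%). It was 4, of which 1 below, without formaldehyde replicate 2 (33.0% and 29.7%), against 3 with all libraries. With 1 library in a group these shares are higher over all genes too, so the counts cannot be set against the 3. The number was 2 under median-ratio or FPKM-sum scaling. Leaving out 1 library gave medians of -0.061 to 0.40 for the members, 0.0030 to 0.61 for the activator list, -0.17 to 0.57 for the constitutive core, -0.11 to 0.14 for regulators, -0.46 to 0.35 for class II presentation, -0.10 to 0.029 for peptide loading and trimming, -0.38 to 0.28 for class I-like molecules, 0.96 to 1.48 for type I interferon effectors and -0.062 to 0.32 for genes known for interferon gamma. For PSMB8 over PSMB5 they gave log2 differences of 0.014 to 0.40, for PSMB10 over PSMB7 of -0.46 to -0.19, and for PSMB9 over PSMB6 log2 differences of -0.17 (without untreated replicate 1) to 0.30, and -0.14 without formaldehyde replicate 2. With the replicate number as a block, 0 members passed (lowest adjusted p 0.635, against up to 1 under the others, for PSMB8, the only member with an unadjusted p under 0.05, 0.0344, limma). Over all genes 29 passed with the block and 19 without. The labels give no pairing beyond the shared number, and deviations of same-numbered libraries from their group means correlated at 0.25 over 12407 genes. Over all genes 0 passed with no filter, 1 among genes of at least 300 nt and 46 to 62 with 1 library left out. The cause of these changes was not tested.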
